A study of Arabidopsis thaliana with 16 samples.

Results

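Wild-type seedlings kept in the proteasome inhibitor MG132 for 24 h were compared with seedlings kept in it for 3 h, over all genes. The comparison uses 8 of the 16 libraries of the series: 4 of Col-0 after 24 h in 100 µM MG132 and 4 of Col-0 after 3 h in 100 µM MG132, chosen by their titles. Col-0 is the common laboratory accession of Arabidopsis thaliana and carries no mutation here. All seedlings were grown for 5 days in liquid medium with sucrose under constant light, and MG132 was added when the medium was renewed. A further 4 libraries of Col-0, taken untreated at 5 days, give the background level of each gene. The other 4 libraries of the series, 2 each from untreated seedlings of the proteasome subunit mutants rpn12a-1 and rpn10-1, are not compared here. They entered the filter on low counts, the scaling and the estimate of the spread. Among them, rpn10-1 library 1 had counts for 27992 genes, against 22120 to 24001 in the other libraries of the series. Without the 4 mutant libraries 20138 genes were tested in place of 21205.

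The 26S proteasome degrades proteins that carry chains of ubiquitin. It consists of a core particle, which holds the protease sites in a barrel of α and β subunits, and a regulatory particle, which binds, unfolds and feeds in the substrate. MG132 is a peptide aldehyde that blocks the protease sites of the core. Plants whose proteasome is blocked are known to make more messenger RNA for its subunits, through the NAC transcription factors NAC053 and NAC078, and to make heat shock proteins, which hold and refold damaged proteins.

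The deposited values were counts of reads per gene, from 6646134 to 16739857 in a library. Levels are given as CPM, that is counts scaled to a common library total, with sizes normalised over the 16 libraries, and fold changes as log2 of 24 h over 3 h with their standard error (SE). A gene was called at a Benjamini-Hochberg adjusted p under 0.05 in edgeR's quasi-likelihood test with the library set as a term. Libraries 3 and 4 of each Col-0 group are labelled as including a technical replicate, and libraries 1 and 2 are not; they are treated as 2 library sets. Nothing in the labels says that libraries of a group were grown apart, and the p-values therefore cover only how far these libraries differ, which may be technical. There was no mock group, so the inhibitor, its solvent, the renewed medium and the greater age of the 24 h seedlings cannot be told apart. In whole seedlings, fewer cells of a type and less RNA per cell cannot be told apart either.

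Of 33602 genes, 21205 had enough counts to be tested. At 24 h 3398 were called, that is 16% of those tested. Of these 1753 (8.27%) were higher at 24 h and 1645 (7.76%) were lower. The change was at least 2-fold for 748 of the higher and 598 of the lower genes, and at least 8-fold for 143 and 65. The median log2 fold change was 0.88 for the higher and -0.79 for the lower genes, while over all genes tested the middle 50% lay between -0.28 and 0.26. The total was 2185 without 3 h library 2, 2008 without 24 h library 1 and 2119 without 24 h library 2. The count lower was 959, 876 and 947 in these cases, and the count higher was 1132 without 24 h library 1.

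**Figure D1:**
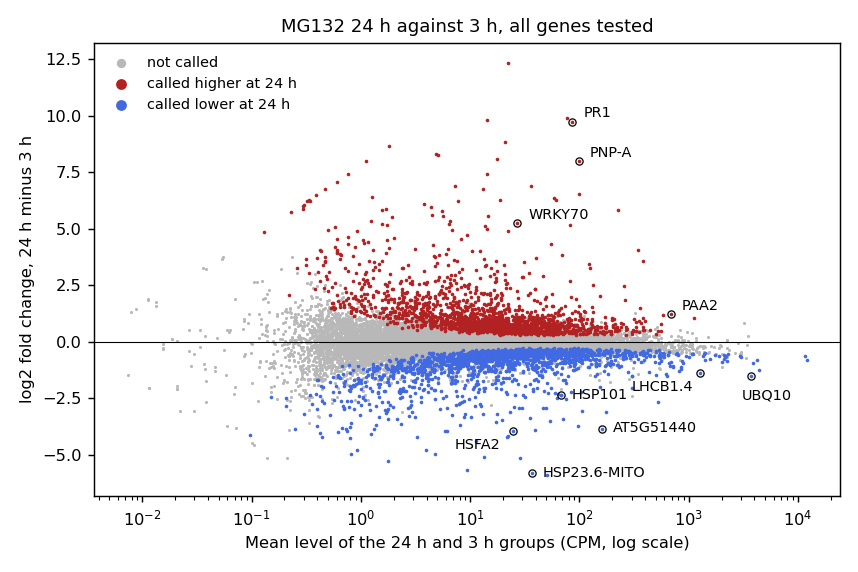
Log2 fold change of 24 h over 3 h against the mean level of both groups in CPM (log axis) for the genes tested. Red points are the 1753 genes called higher at 24 h and blue points the 1645 called lower; PR1 and PNP-A lie at the top, HSP23.6-MITO at the bottom, and the antenna gene LHCB1.4 and the polyubiquitin gene UBQ10 at the right.

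The library sets and 1 library stood apart. The effect of time differed between the sets for 3168 of 19481 genes (16.3%) in a test of the interaction. For 2430 of these the effect had opposite signs in the 2 sets or lacked an estimate in a set fitted alone. Of the 3168, 423 were among the genes called over all libraries, and 422 of these 423 had the same sign in both sets. A call over all libraries averages the sets and so favours genes of equal sign. The 3168 were 1380 without 3 h library 2, 1246 without 24 h library 1, 2003 without 3 h library 3, 2100 without 3 h library 4 and 1456 without 24 h library 4. Of 19268 genes tested in both sets, 7462 were called in libraries 1 and 2 alone and 1696 in libraries 3 and 4 alone. Of these, 957 were called in the same direction in both, which is 12.8% of the calls in libraries 1 and 2 and 56.4% of the calls in libraries 3 and 4. In the opposite direction 187 were called. Among the 4 libraries of 24 h, library 4 had the lowest level for 1056 of the 1753 genes called higher, which is 60.2%, and the highest level for 791 of the 1645 called lower. Without 24 h library 4, 4496 genes were called. Both sets' values are given for named genes whose effect differed between them and for lists whose medians had opposite signs or lay far apart.

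**Figure D2:**
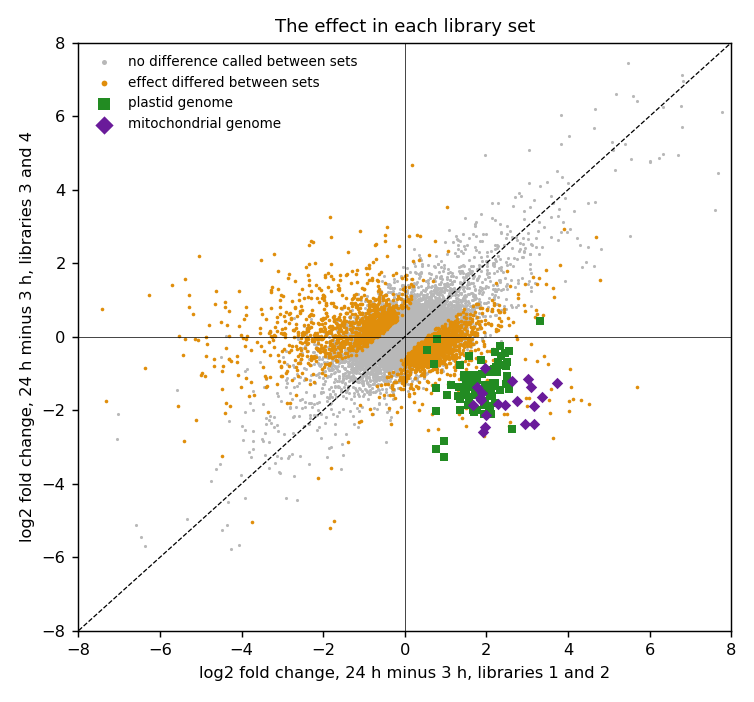
Log2 fold change of 24 h over 3 h in libraries 3 and 4 against the same in libraries 1 and 2, for 19209 genes, of which 17 lie beyond the axes. Orange points are genes whose effect differed between the sets; genes of the plastid genome (green squares) and of the mitochondrial genome (purple diamonds) sit nearly all at the lower right, higher at 24 h in libraries 1 and 2 and lower in libraries 3 and 4.

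Most genes of heat shock proteins and their partners were lower at 24 h, and most heat shock factors were not called. Of 16 small heat shock proteins, which bind unfolding proteins, 14 were lower, none was higher and the median log2 fold change was -2.80, beside 0.00 over all genes tested. Of 20 genes for HSP70, HSP90, HSP101 and their co-chaperones, 13 were lower and none higher, with a median of -0.84 (-0.53 in libraries 1 and 2 and -1.03 in libraries 3 and 4), and 1 was higher without 3 h library 3 or 24 h library 4. Of 17 heat shock factors tested out of 21, HSFA2 and HSFA7B were lower and none was higher, a share called of 11.8% beside 16% of all genes, and the median was 0.21. HSFA7B, with a log2 fold change of -2.74 ± 0.75 (SE) and an adjusted p of 0.0223, lost its call without 3 h library 1, 2 or 3 or 24 h library 1 or 2 (adjusted p 0.053 to 0.0784). Without 24 h library 4, 4 heat shock factors were lower and 4 were higher, and without 3 h library 3, 1 was higher.

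HSFA2 encodes the heat shock factor that keeps chaperone genes active during long heat stress. The stretch just before its start on the plus strand, chr2:11135494-11135623 of TAIR10.1 from RefSeq, is shown because it holds a heat shock element, the site at which heat shock factors bind; capitals mark the element, 3 units of GAA and TTC in turn with 2 bases between them.
HSFA2: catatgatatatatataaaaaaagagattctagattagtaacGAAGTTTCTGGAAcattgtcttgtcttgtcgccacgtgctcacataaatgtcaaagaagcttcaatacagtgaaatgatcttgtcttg

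HSFA2 (AT2G26150, chromosome 2, 11135624 to 11137792) had 1.72, 2.44, 4.06 and 3.65 CPM in the 4 libraries of 24 h, against 52.0, 45.4, 49.9 and 36.4 CPM in those of 3 h. The groups stood well apart. Untreated seedlings had 1.6 ± 0.403 CPM (SD, n = 4), near 24 h library 1 and under 24 h libraries 3 and 4. The log2 fold change was -3.95 ± 0.25 (SE, adjusted p = 1.29e-07). HSP23.6-MITO, a small heat shock protein of mitochondria, had 0.429, 0.905, 2.03 and 1.69 CPM at 24 h and 63.5, 58.8, 96.3 and 69.0 CPM at 3 h. No library of 24 h came near any of 3 h, and the log2 fold change was -5.83 ± 0.25 (adjusted p = 1.49e-09). The cytosolic small heat shock genes HSP17.6II and HSP17.6A, which lie 845 bases apart on chromosome 5, had log2 fold changes of -5.11 ± 0.45 and -4.19 ± 0.44. AT1G53540, another small heat shock gene, had 0.107 to 2.03 CPM at 24 h and 9.94 to 37.4 CPM at 3 h. Reads of small heat shock genes that are alike in sequence could be shared between copies, so the split among such copies is uncertain.

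AT5G51440 was the most abundant small heat shock gene named here, with 13.5, 14.7, 31.9 and 27.5 CPM at 24 h against 340, 286, 311 and 256 CPM at 3 h. Its fall was larger in libraries 1 and 2, with a log2 fold change of -4.47, than in libraries 3 and 4, with -3.24 (adjusted p of the difference = 0.00903). AT1G59860 was uneven too, with log2 fold changes of -2.88 in libraries 1 and 2 and -1.81 in libraries 3 and 4 (adjusted p of the difference = 0.0334). It had 4.61, 6.52, 9.39 and 8.29 CPM at 24 h and 41.5, 41.5, 36.1 and 27.1 CPM at 3 h, and the 24 h libraries were above the 1.75 ± 0.0956 CPM of untreated seedlings.

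HSP101, the chaperone that pulls proteins out of aggregates, had 15.1, 17.2, 29.1 and 25.6 CPM at 24 h and 87.9, 77.2, 152 and 137 CPM at 3 h. The groups did not overlap, and untreated seedlings had 16.8 ± 2.81 CPM. Its log2 fold change was -2.37 ± 0.11 (adjusted p = 3.41e-09) and was almost equal in the 2 library sets, -2.35 in libraries 1 and 2 and -2.38 in libraries 3 and 4. The co-chaperone ROF2, an FK506-binding protein, had a log2 fold change of -3.5 ± 0.15 and the HSP70 and HSP90 organizing protein HOP3 one of -2.27 ± 0.16. HSP90.1, the heat-inducible cytosolic HSP90, had 74.5, 74.8, 183 and 137 CPM at 24 h and 385, 267, 711 and 566 CPM at 3 h. Every library of 24 h was above the untreated level of 13.5 ± 5.1 CPM.

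**Figure D3:**
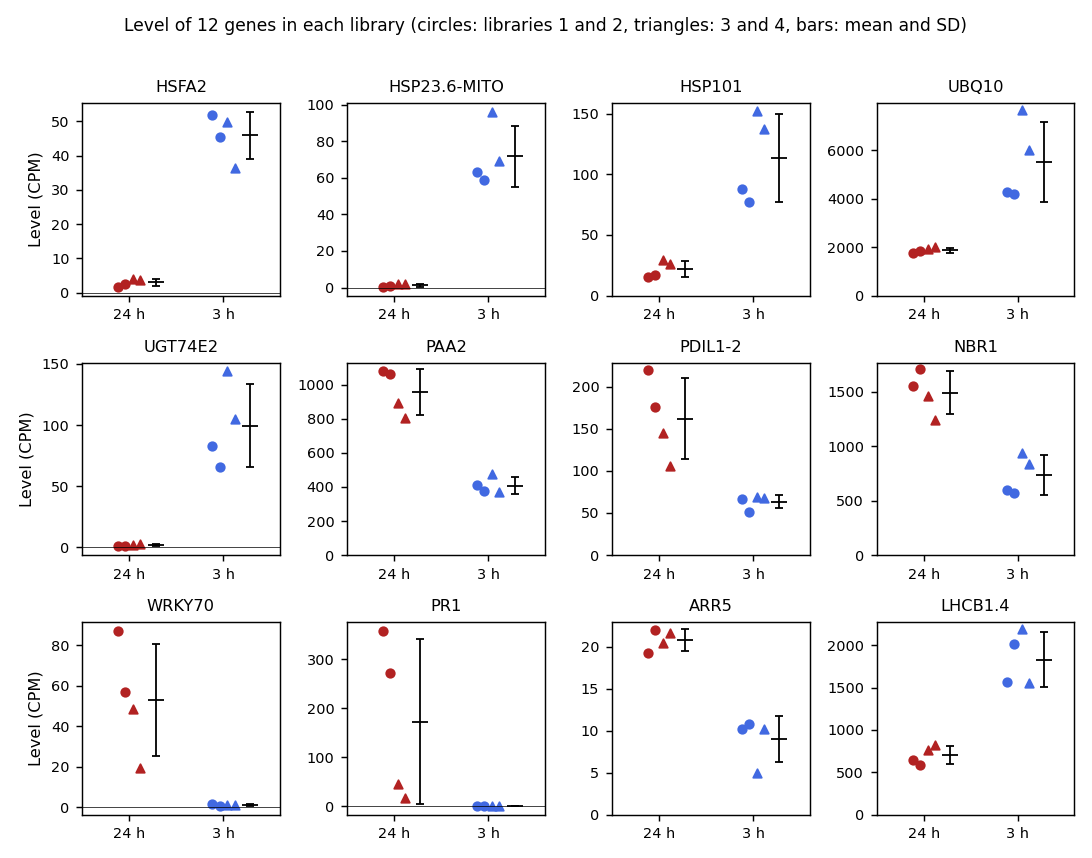
Level in CPM (linear axes) of 12 genes in each library, 24 h in red on the left and 3 h in blue on the right; circles are libraries 1 and 2, triangles libraries 3 and 4, and bars the mean and SD of 4 libraries. The 24 h and 3 h libraries do not overlap in any of the 12 genes, and PR1 spreads from 15.6 to 358 CPM among the 24 h libraries.

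A heat shock element was found on either strand in the window from 250 bases before to 50 bases after the start of 0.544% of the 20423 protein-coding genes tested whose window was read. The share was 1.67% among genes lower at 24 h and 0.233% among genes higher at 24 h. It was in 3 of the 17 heat shock factors (17.6%), 2 of the 16 small heat shock proteins (12.5%) and 3 of the 20 genes of the HSP70 to HSP101 list (15%). A match describes the letters in this window and is not a measured binding site.

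Several polyubiquitin genes were lower too. Of 11 ubiquitin and ubiquitin-activating enzyme genes, 5 were lower and none higher (45.5% beside 16% of all genes). Their median log2 fold change was -0.38. UBQ10, a polyubiquitin gene used widely as a steady control, had 1750, 1830, 1910 and 1990 CPM at 24 h against 4280, 4180, 7670 and 6000 CPM at 3 h. The 24 h libraries lay within a narrow range under all 3 h libraries, and untreated seedlings had 1350 ± 81.2 CPM. UBQ10 had a log2 fold change of -1.54 ± 0.17 (adjusted p = 2.67e-05). UBQ14, UBQ11 and UBQ3, polyubiquitin genes too, had log2 fold changes of -1.44 ± 0.15, -1.21 ± 0.15 and -1.14 ± 0.14. Their coding repeats are nearly alike, so reads could be shared among them.

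Genes of detoxification and of mitochondrial stress were more often lower than higher. UGT74E2, which glycosylates the auxin indole-3-butyric acid, had the most negative fold change among genes with at least 5 CPM and no overlap between the groups. It had 0.858, 0.905, 1.84 and 2.95 CPM at 24 h against 83.0, 65.5, 144 and 105 CPM at 3 h, and its log2 fold change was -5.93 ± 0.22 (adjusted p = 6.06e-10). The 24 h libraries were under the untreated level of 4.43 ± 1.54 CPM. SOT12, a sulfotransferase, had 31.3, 35.9, 41.5 and 37.4 CPM at 24 h and 349, 333, 301 and 279 CPM at 3 h, a log2 fold change of -3.11 ± 0.12. AOX1A, the alternative oxidase of mitochondria, had 77.1, 88.5, 79.1 and 68.3 CPM at 24 h and 174, 179, 182 and 139 CPM at 3 h. It was lower at 24 h in all 4 libraries, with a log2 fold change of -1.11 ± 0.11 (adjusted p = 1.8e-05), yet above the untreated 20.2 ± 3.31 CPM.

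Of 9 genes of the mitochondrial dysfunction response 3 were lower and none higher, a share called of 33.3% beside 16% of all genes. Of 25 tau-class glutathione transferases tested out of 28, 8 were lower and 1, GSTU8, was higher, together 36% beside 16% of all genes. GSTU8 had a log2 fold change of 0.87 ± 0.21, and without 24 h library 4 the count higher was 2. Among the lower ones were GSTU9 with a log2 fold change of -2.09 ± 0.21, GSTU17 with -2.21 ± 0.31, GSTU22 with -2.27 ± 0.36 and GSTU5 with -1.22 ± 0.16. Of 57 UDP glycosyltransferases tested out of 64, 18 were lower and 2 higher, together 35.1% beside 16% of all genes. UGT73C1 had a log2 fold change of -3.71 ± 0.45, UGT73C6 of -3.28 ± 0.43 and UGT73C5, which glycosylates brassinosteroids, of -1.72 ± 0.23. The 2 higher glycosyltransferases were 0 without 3 h library 2 or 4 and 1 without 24 h library 1 or 3 or 3 h library 3. CYP81D8, a cytochrome P450 induced by many chemicals, had 5.58, 5.70, 6.92 and 6.11 CPM at 24 h and 71.2, 79.1, 66.7 and 44.1 CPM at 3 h, with a log2 fold change of -3.39 ± 0.26.

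Genes outside the lists were among the largest falls too. AT2G41730 had 1.12 to 1.93 CPM at 24 h and 41.7 to 64.4 CPM at 3 h, AT5G43450 4.50 to 5.78 and 61.9 to 85.5 CPM, and AT5G55150 0.181 to 0.492 and 13.3 to 20.5 CPM. In each the groups were far apart and the 24 h level was at or under the untreated mean of 2.99, 7.85 or 0.389 CPM, except in 24 h libraries 3 and 4 of AT5G55150. RNS1, a secreted ribonuclease, had log2 fold changes of -3.74 in libraries 1 and 2 and -5.05 in libraries 3 and 4 (adjusted p of the difference = 0.0178).

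Of 16 cold and abscisic acid genes tested out of 18, 7 were lower, none was higher and 9 were not called. The share called was 43.8% beside 16% of all genes. The median log2 fold change was -1.42 over all libraries, -0.43 in libraries 1 and 2 and -2.10 in libraries 3 and 4. COR15A, a protein that protects chloroplast membranes in the cold, had 0.214, 0.181, 0.254 and 0.351 CPM at 24 h and 5.37, 2.70, 14.8 and 7.70 CPM at 3 h, a log2 fold change of -4.81 ± 0.53 (adjusted p = 3.24e-05). All 24 h libraries were also under the untreated 1.19 ± 0.477 CPM. KIN1 and COR6.6, near-identical neighbours 892 bases apart on chromosome 5, had log2 fold changes of -3.46 ± 0.43 and -3.08 ± 0.36. RD29A, a drought and cold gene, had 11.2, 9.51, 11.4 and 8.99 CPM at 24 h against 36.6, 32.5, 490 and 178 CPM at 3 h. RD29A had log2 fold changes of -1.75 in libraries 1 and 2 and -5.01 in libraries 3 and 4 (adjusted p of the difference = 0.00444). The 3 h libraries 3 and 4 were far above 1 and 2, while the 24 h libraries were alike.

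**Figure D4:**
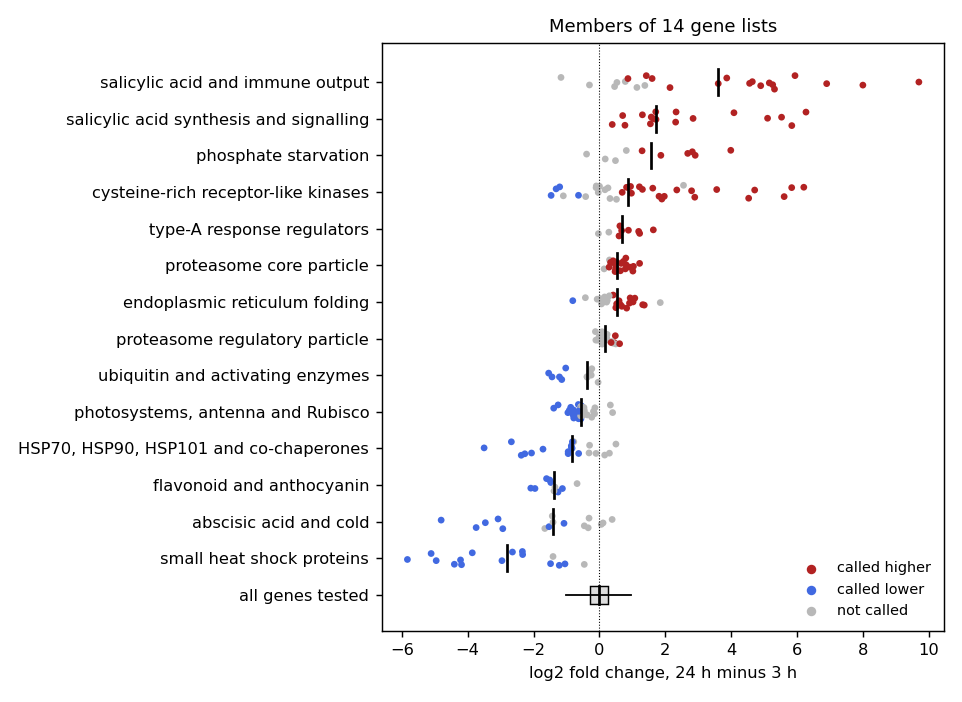
Log2 fold change of 24 h over 3 h for the members of 14 gene lists; each point is a gene, red called higher, blue called lower and grey not called, and the vertical bar is the list's median. The bottom row shows all genes tested as the middle 50% (box, -0.28 to 0.26) and the 5th to 95th percentile (line); the 17 genes of salicylic acid synthesis and signalling are all red, and 14 of the 16 small heat shock proteins are blue.

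Most messages of the proteasome's core particle were higher at 24 h than at 3 h. Of the 21 core particle genes 19 were higher and none lower, with a median log2 fold change of 0.52, and the medians were 0.69 in libraries 1 and 2 and 0.43 in libraries 3 and 4. PAA2, an α subunit of the core (AT2G05840, chromosome 2, 2234019 to 2236470), had 1080, 1060, 891 and 802 CPM at 24 h against 409, 375, 475 and 372 CPM at 3 h. All 24 h libraries were above all 3 h libraries, and both groups were above the untreated 74.7 ± 8.73 CPM. PAA2 had a log2 fold change of 1.22 ± 0.12 (adjusted p = 1.4e-05). Its paralogue PAA1 had 219 to 331 CPM at 24 h and 114 to 147 CPM at 3 h. PAB1, another α subunit, rose by 0.92 ± 0.09 and the protease subunit PBB1 by 0.80 ± 0.09 on the log2 scale. Most core subunits have a close paralogue, so reads could be split between them.

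PBB1 encodes the β2 subunit, which cuts after basic residues. Its stretch just before the start on the plus strand, chr3:10152328-10152457 of TAIR10.1, is shown beside that of the small heat shock gene AT1G59860, chr1:22031213-22031342 on the plus strand, because both hold the letters TGGGC, part of the element that proteasome genes share, although PBB1 was higher and AT1G59860 lower at 24 h. Capitals mark TGGGC, or GCCCA where it lies on the other strand.
PBB1: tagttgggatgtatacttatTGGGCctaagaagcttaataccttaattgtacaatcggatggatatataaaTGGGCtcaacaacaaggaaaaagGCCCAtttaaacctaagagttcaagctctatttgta
AT1G59860: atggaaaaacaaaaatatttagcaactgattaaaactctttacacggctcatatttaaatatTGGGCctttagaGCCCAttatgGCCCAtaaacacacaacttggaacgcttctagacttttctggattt

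TGGGC was found on either strand in the windows of 14 of 21 core particle genes (66.7%), 15 of 24 regulatory particle genes (62.5%) and 13 of 16 small heat shock proteins (81.2%). Ribosomal protein genes, of which few were called, had it about as often as the core particle, in 212 of 319 windows (66.5%). It was in 29.0% of all windows read, in 26.5% of genes higher at 24 h and in 24.1% of genes lower at 24 h. It is a short run of letters and these shares are a description.

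Of 24 regulatory particle genes, 4 were higher and none lower, a share called of 16.7% that is near the 16% of all genes, with a median log2 fold change of 0.17. The 4 were only 1 without 3 h library 1 or 2 or 24 h library 1 or 2. RPT5B, an ATPase of the base, rose by 1.00 in libraries 1 and 2 and by 0.26 in libraries 3 and 4 on the log2 scale (adjusted p of the difference = 0.0403). RPN12A, a lid subunit, had 452, 436, 336 and 328 CPM at 24 h and 279, 256, 320 and 240 CPM at 3 h, so its groups stood close together. The log2 fold change was 0.48 ± 0.13 for RPN12A (adjusted p = 0.0191) and 0.46 ± 0.12 for RPT1A, another ATPase of the base (adjusted p = 0.0202). Each lost its call without 3 h library 1 or 2 or 24 h library 1 or 2, with an adjusted p of 0.0549 to 0.0639 for RPN12A and 0.0529 to 0.0609 for RPT1A. The untreated levels were far lower, 85.4 ± 13.8 CPM for RPN12A and 157 ± 19.1 CPM for RPT1A.

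Of 11 genes for assembly factors and proteins that bind the proteasome, 4 were higher and 1 lower (45.5% beside 16% of all genes). UBP7, a ubiquitin-cleaving enzyme of the family that docks on the proteasome, had 49.2, 55.4, 51.4 and 46.6 CPM at 24 h against 24.0, 19.7, 25.4 and 24.8 CPM at 3 h, a log2 fold change of 1.11 ± 0.11 (adjusted p = 1.17e-05). AT1G67250, the maturation factor UMP1 of the core, rose by 0.66 ± 0.12, and UBP6, the close relative of UBP7, by 0.41 ± 0.11. AT3G53970, related to a proteasome inhibitor, rose by 0.44 ± 0.11 (adjusted p = 0.014), a call that was lost without 3 h library 1 (adjusted p 0.0513) or 24 h library 2 (0.0577). The lower gene was CDC48B, an AAA ATPase that extracts ubiquitin-tagged proteins, with 307, 309, 347 and 329 CPM at 24 h against 391, 313, 652 and 517 CPM at 3 h. Its 24 h libraries overlapped with those of 3 h, and the log2 fold change was -0.51 ± 0.16 (adjusted p = 0.0433). Without any 1 library other than 3 h library 2 the call was lost (adjusted p 0.0685 to 0.16), and without 3 h library 3 the log2 fold change was -0.32. Both times were far above the untreated 18.6 ± 1.46 CPM.

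NAC053 and NAC078, the transcription factors of proteasome genes, were not higher at 24 h. NAC053 had 28.6, 37.7, 26.9 and 21.6 CPM at 24 h and 32.7, 28, 53.4 and 45.8 CPM at 3 h. The groups overlapped and the gene did not pass the test (log2 fold change -0.47 ± 0.19, adjusted p = 0.111). The sets differed, with 0.12 in libraries 1 and 2 and -1.01 in libraries 3 and 4 (adjusted p of the difference = 0.0128). NAC078 had 67.4, 74.0, 86.4 and 85.2 CPM at 24 h and 94.0, 95.4, 107 and 99.0 CPM at 3 h, lower in every library, with a log2 fold change of -0.34 ± 0.09 (adjusted p = 0.0216) that lost its call without 3 h library 2 or 3 or 24 h library 1 or 2 (adjusted p 0.0658 to 0.09).

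Among 18 stress NAC genes tested out of 19, 3 were higher and 4 lower, together 38.9% beside 16% of all genes. Their medians were 0.12 in libraries 1 and 2 and -0.20 in libraries 3 and 4. The 4 lower were 2 without 3 h library 2 or 3 or 24 h library 1. NAC103, which acts in the unfolded protein response, had 72.2, 59.2, 48.5 and 44.5 CPM at 24 h against 21.1, 15.9, 23.0 and 27.0 CPM at 3 h and 1.70 ± 0.734 CPM untreated. It rose by 1.80 in libraries 1 and 2 and by 0.90 in libraries 3 and 4 on the log2 scale (adjusted p of the difference = 0.024). ORE1, known for leaf senescence, rose by 1.83 ± 0.25. NAC013, which controls genes of mitochondrial stress, had 24.4, 21.5, 24.1 and 20.1 CPM at 24 h and 57.4, 41.3, 77.3 and 59.3 CPM at 3 h, a log2 fold change of -1.37 ± 0.16, and NAC032 fell by 1.90 ± 0.29.

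Most genes for folding in the endoplasmic reticulum (ER) were higher at 24 h. Of 25 genes of ER chaperones and quality control 14 were higher and 1 lower, with a median log2 fold change of 0.52. P58IPK, an ER co-chaperone, had 59.5, 49.7, 60.8 and 46.5 CPM at 24 h and 31.4, 20.2, 21.8 and 28.5 CPM at 3 h, with untreated seedlings at 30.0 ± 1.21 CPM. The 3 h libraries 1 and 4 were thus near the untreated level, 3 h libraries 2 and 3 were under it, and the 24 h libraries were above it. P58IPK had a log2 fold change of 1.07 ± 0.14 (adjusted p = 0.000174) and ERDJ3B, an ER partner of HSP70, one of 0.93 ± 0.13. PDIL1-2, a protein disulfide isomerase, had 220, 176, 145 and 106 CPM at 24 h and 66.4, 51.3, 68.7 and 67.9 CPM at 3 h. Its rise was larger in libraries 1 and 2, 1.74, than in libraries 3 and 4, 0.89 (adjusted p of the difference = 0.0451), as was that of the calreticulin CRT3, 1.85 and 0.79 (adjusted p of the difference = 0.0168).

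BIP2, the HSP70 of the ER, had 444, 379, 477 and 372 CPM at 24 h and 214, 133, 292 and 216 CPM at 3 h, a log2 fold change of 0.99 ± 0.17 (adjusted p = 0.0014). Its near-identical copy BIP1 could share reads with it. The single lower gene of the list was BZIP60, the transcription factor of the unfolded protein response, with 56.2, 64.6, 54.6 and 53.2 CPM at 24 h against 123, 121, 100 and 64.5 CPM at 3 h. The groups touched at 24 h library 2 and 3 h library 4, and the log2 fold change was -0.81 ± 0.14 (adjusted p = 0.00112). Untreated seedlings had 30.8 ± 6.48 CPM of BZIP60 and 211 ± 15.1 CPM of BIP2.

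Of 24 autophagy genes 4 were higher and none lower, which at 16.7% is near the 16% called over all genes, and the 4 were 2 without 3 h library 1 or 2 or 24 h library 1 or 2. NBR1, the receptor that brings ubiquitin-tagged aggregates to autophagy, had 1550, 1710, 1460 and 1240 CPM at 24 h against 596, 568, 942 and 840 CPM at 3 h and 191 ± 16.5 CPM untreated. It was higher in all 24 h libraries, with a log2 fold change of 1.03 ± 0.17 (adjusted p = 0.000972), 1.49 in libraries 1 and 2 and 0.62 in libraries 3 and 4 (adjusted p of the difference = 0.0284). ATG8F, which coats the forming autophagosome, had 83.6, 75.3, 70.1 and 67.1 CPM at 24 h and 43.9, 54.4, 50.4 and 43.9 CPM at 3 h. It was back at the untreated 82.4 ± 10 CPM, with a log2 fold change of 0.62 ± 0.11.

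**Figure D5:**
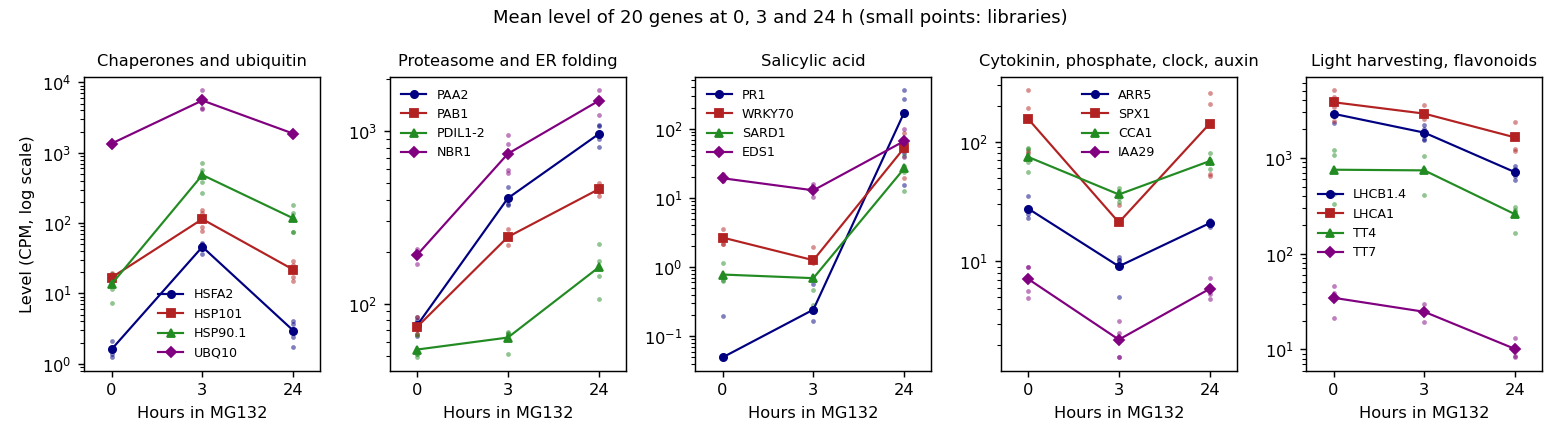
Mean level in CPM (log axes) of 20 genes at 0, 3 and 24 h in MG132 in Col-0, in 5 groups; large symbols joined by lines are means of 4 libraries and small points the libraries, of which those at 0 cannot be drawn. HSFA2 and UBQ10 peak at 3 h, PAA2 and NBR1 go on upwards to 24 h, PR1 and WRKY70 are highest at 24 h, and ARR5 and CCA1 are lowest at 3 h.

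Genes of salicylic acid, the hormone of defence against biotrophic pathogens, were higher at 24 h. All 17 genes of its synthesis and signalling were higher at 24 h, with a median log2 fold change of 1.72 (2.21 in libraries 1 and 2 and 1.70 in libraries 3 and 4), and the count was 14 to 17 with any 1 library left out. Of 23 genes known as its outputs or as immune markers, 16 were higher and none lower, with a median of 3.61. PBS3, the enzyme that joins isochorismate to glutamate on the way to salicylic acid, had 47.4, 48.6, 40 and 12.6 CPM at 24 h against 1.06, 0.568, 0.166 and 0 CPM at 3 h. SARD1, a transcription factor that switches the synthesis on, had 40.7, 29.3, 24.1 and 12.6 CPM at 24 h and 1.36, 0.284, 0.665 and 0.464 CPM at 3 h. In both genes the 24 h libraries were far above those of 3 h, and library 4 was the lowest of 24 h, as it was in 15 of the 17 genes. The log2 fold change was 6.27 ± 0.49 for PBS3 (adjusted p = 1.18e-06), 5.11 ± 0.49 for SARD1 and 4.09 ± 0.37 for FMO1, an enzyme that makes the mobile signal N-hydroxypipecolic acid.

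EDS1, a lipase-like hub of immune receptor signalling (AT3G48090), had 99.1, 69.9, 58.1 and 38.7 CPM at 24 h and 15.7, 10.2, 12.8 and 12.8 CPM at 3 h, a log2 fold change of 2.33 ± 0.23 (adjusted p = 1.28e-05). WRKY70, a transcription factor downstream of salicylic acid, had 87.0, 57.0, 48.5 and 19.4 CPM at 24 h against 1.95, 0.710, 1.16 and 1.21 CPM at 3 h. Every 24 h library was more than the highest 3 h library, and untreated seedlings had 2.68 ± 0.682 CPM. WRKY70 had a log2 fold change of 5.26 ± 0.37 (adjusted p = 5.36e-07), with 5.53 in libraries 1 and 2 and 4.84 in libraries 3 and 4. NUDT6, a Nudix hydrolase, rose by 4.90 ± 0.31.

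PR1, the classical marker of salicylic acid (AT2G14610, chromosome 2, 6241640 to 6242541), had 358, 273, 44.2 and 15.6 CPM at 24 h against 0.236, 0.568, 0.166 and 0 CPM at 3 h. The 24 h libraries differed widely, with libraries 1 and 2 above 3 and 4, but none was near a 3 h library. Its log2 fold change was 9.70 ± 0.48 (adjusted p = 7.73e-09). The 3 h level rests on few reads, so the size of this change is less certain than its SE says. PNP-A, a secreted natriuretic peptide, had 388, 311, 65.0 and 27.0 CPM at 24 h and 1.00, 1.14, 0.166 and 0.557 CPM at 3 h. It kept the order of PR1 among the 24 h libraries and had a log2 fold change of 8.0 ± 0.36. XTH10, a cell wall enzyme gene that begins 2230 bases from PR1, had 26.1, 19.5, 4.76 and 1.83 CPM at 24 h and 1.71, 1.99, 2.00 and 1.3 CPM at 3 h. It rose by 3.65 in libraries 1 and 2 and by 1.08 in libraries 3 and 4 (adjusted p of the difference = 0.0247), and 24 h library 4 was inside the range of the 3 h libraries.

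AT3G28510 had no count in any 3 h library and 1915 counts over the 4 libraries of 24 h, which is at least 517-fold higher when the whole 3 h group is set to a floor of 3 counts. Its levels at 24 h were 104, 40.8, 28 and 4.00 CPM. PUB54, of the U-box ubiquitin ligase family, had 1321 counts at 24 h and 1 count at 3 h, a ratio of 1070 with a 95% exact interval of 192 to 42300, which covers counting error only. Likewise ANK had 429 counts and 1 count, a ratio of 347 (interval 62 to 13700), and AT4G01180 had 484 and 1, a ratio of 392 (interval 70 to 15500). All of these were close to 0 in untreated seedlings as well.

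LURP1, known from infection by downy mildew, had 250, 228, 97.2 and 39.0 CPM at 24 h and 0.118, 0.710, 0 and 0 CPM at 3 h. PCC1, whose message follows pathogens and the clock, had 70.9, 61.4, 26.8 and 6.95 CPM at 24 h and 0.177, 0, 0 and 0.0928 CPM at 3 h. AT5G03350, a lectin gene, had 317, 266, 125 and 72.0 CPM at 24 h and 2.13, 3.69, 1.83 and 0.928 CPM at 3 h. In all 3 genes the 24 h libraries 1 and 2 were above 3 and 4, and none overlapped with 3 h. The log2 fold changes of the remaining large rises were 6.34 ± 0.45 for AIG1, 6.90 ± 0.56 for the wall-associated kinase WAK3, 8.07 ± 0.71 for PCR1, 7.43 ± 0.60 for the aspartyl protease gene AT5G10760, 6.87 ± 0.35 for AT3G22235 and 6.75 ± 0.88 for AT3G28540. AT3G22235 lies 7585 bases from PCC1, and AT3G28540 lies 6745 bases from AT3G28510.

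Of 60 WRKY transcription factors tested out of 71, 15 were higher and 4 lower, together 31.7% beside 16% of all genes. The 4 lower were 2 without 3 h library 1 or 24 h library 1 or 2. WRKY54, the closest relative of WRKY70, rose by 5.32 ± 0.56, WRKY51 by 3.80 ± 0.37 and WRKY46 by 3.61 ± 0.49 on the log2 scale. Of 37 cysteine-rich receptor-like kinases tested out of 42, which sense signals at the cell surface, 20 were higher and 4 lower. Together this was 64.9% beside 16% of all genes, and the median was 0.88. The 4 lower were 2 without 3 h library 1, 3 or 4 or 24 h library 1, 2 or 4. CRK2 had 27.6, 23.6, 29.6 and 24.0 CPM at 24 h and 10.9, 9.23, 10.3 and 11.6 CPM at 3 h, a log2 fold change of 1.31 ± 0.14 that was even over the libraries. CRK13 rose by 2.80 ± 0.31 and CRK4 by 5.61 ± 0.59. A run of 20 of these genes lies side by side on chromosome 4 (12117491 to 12191704), and of the 19 tested there 14 were higher and none lower. Genes of such a run are alike in sequence, so reads could be shared among them.

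The stretch before the start of CRK6 on the plus strand, chr4:12121239-12121368 of TAIR10.1, is shown because it holds a pair of W boxes, the site of WRKY factors, close together. Capitals mark TTGACT.
CRK6: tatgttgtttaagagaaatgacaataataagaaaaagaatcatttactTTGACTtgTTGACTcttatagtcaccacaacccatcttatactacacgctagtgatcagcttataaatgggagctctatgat

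CRK6 had 27.8, 28.9, 8.38 and 7.02 CPM at 24 h and 1.59, 1.14, 0 and 0 CPM at 3 h, with a log2 fold change of 4.71 ± 0.47 (adjusted p = 1.28e-05). It was 4.29 in libraries 1 and 2, while in libraries 3 and 4, where 3 h had no count, a fold change cannot be given. A W box, TTGACC or TTGACT on either strand, was found in the windows of 23 of the 37 cysteine-rich receptor-like kinases (62.2%). It was in 38.1% of genes higher at 24 h, 33.2% of genes lower at 24 h and 32.8% of all windows read. Among lists with more lower than higher genes, the share was 77.8% for mitochondrial dysfunction (7 of 9), 52% for tau-class glutathione transferases (13 of 25) and 18.8% for small heat shock proteins (3 of 16). These shares are a description. The W box was in 35% of WRKY genes, in 3 of the 17 genes of salicylic acid synthesis and signalling (17.6%) and in 8 of the 23 output genes (34.8%). No match says only that these letters are not in this window.

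Cytochrome P450 genes moved both ways: of 178 tested out of 240, 23 were higher and 26 lower, together 27.5% beside 16% of all genes. The 23 were 15 without 3 h library 1, and the 26 were 17 without 24 h library 1. CYP76C6 had 29.7, 24.4, 5.65 and 2.11 CPM at 24 h against 0.236, 0.284, 0 and 0.186 CPM at 3 h, and CYP71B23 rose by 2.85 ± 0.22 on the log2 scale.

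Most early cytokinin response genes were higher at 24 h. Of 9 type-A response regulators tested out of 10, which rise fast after cytokinin and damp its signal, 7 were higher and none lower, with a median of 0.67. ARR5 had 19.2, 22.0, 20.4 and 21.6 CPM at 24 h against 10.2, 10.8, 4.99 and 10.2 CPM at 3 h and 27.6 ± 5.2 CPM untreated. The 24 h libraries were close together, above all 3 h libraries and mostly under the untreated ones. The log2 fold change was 1.19 ± 0.18 for ARR5 (adjusted p = 0.000612), 1.22 ± 0.19 for ARR7, 0.88 ± 0.14 for ARR8 and 1.64 ± 0.21 for ARR16. ARR5 and EDS1 are neighbours 279 bases apart on the same strand.

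Of 20 early auxin response genes, 3 were higher and 1 lower, together 20% beside 16% of all genes. IAA29, a repressor of auxin signalling, rose by 1.4 ± 0.26 and GH3.2, which conjugates auxin to amino acids, by 1.43 ± 0.27. GH3.3, of the same family, fell by 0.96 ± 0.19. The count lower was 2 without 3 h library 4 and 3 without 24 h library 4.

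Of 22 jasmonate genes tested out of 23, 1 was higher and 4 were lower, together 22.7% beside 16% of all genes. The count higher was 0 without 3 h library 2 or 24 h library 1 or 2. AOS, which makes the jasmonate precursor, had 55.3, 57.7, 56.8 and 77.0 CPM at 24 h and 119, 129, 128 and 100 CPM at 3 h, a log2 fold change of -0.95 ± 0.15. VSP2, a late jasmonate marker, had 0.751, 1.18, 0.698 and 0.562 CPM at 24 h and 3.96, 4.97, 3.49 and 2.32 CPM at 3 h.

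Of 10 genes of phosphate starvation 6 were higher and none lower, with a median of 1.58 (1.85 in libraries 1 and 2 and 1.11 in libraries 3 and 4). SPX1, the sensor that holds the response back, had 254, 208, 51.3 and 54.1 CPM at 24 h and 29.7, 36.8, 8.98 and 9.0 CPM at 3 h. Both groups were split by library set, and within each set the 24 h libraries were several-fold higher, with log2 fold changes of 2.81 in libraries 1 and 2 and 2.56 in libraries 3 and 4. SPX3 rose by 3.99 ± 0.52, the acid phosphatase PAP17 by 1.87 ± 0.25 and the phosphatase PS2 by 2.91 ± 0.50, and in these 3 genes the 24 h and 3 h libraries overlapped across the sets. The rise of PS2 was 3.47 in libraries 1 and 2 and 1.81 in libraries 3 and 4 (adjusted p of the difference = 0.0199). Untreated seedlings had 156 ± 91.0 CPM of SPX1, so 3 h was the low point.

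Of 13 clock genes, 3 were higher, 4 lower and 6 not called, a share called of 53.8% beside 16% of all genes. Their median was 0.29 in libraries 1 and 2 and -0.44 in libraries 3 and 4. LHY and CCA1, the morning repressors (CCA1 named for its partner, after its values were seen), had 173, 158, 112 and 135 CPM and 80.3, 66.3, 59.1 and 69.7 CPM at 24 h, against 93.5, 87.7, 53.7 and 54.5 CPM and 38.7, 41.0, 33.6 and 31.5 CPM at 3 h. The 24 h level of LHY was near the untreated 141 ± 13.1 CPM and that of CCA1 near 74.7 ± 15.7 CPM. LUX, an evening gene, had a log2 fold change of -0.77 ± 0.12 and the RNA-binding protein gene GRP7 of -1.11 ± 0.15. The hour of harvest is not given in the sources used here.

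Of 39 genes for photosystems, antenna and Rubisco 19 were lower, none was higher and 20 were not called. The share called was 48.7% beside 16% of all genes. The median was -0.56, with -0.88 in libraries 1 and 2 and -0.29 in libraries 3 and 4. The 19 were 8 without 3 h library 2, 9 without 24 h library 1, 8 without 24 h library 2, 11 without 3 h library 3 and 10 without 24 h library 3. LHCB1.4, an antenna protein of photosystem II, had 640, 592, 767 and 827 CPM at 24 h against 1570, 2010, 2190 and 1550 CPM at 3 h and 2880 ± 539 CPM untreated. No 24 h library reached a 3 h library, and the log2 fold change was -1.39 ± 0.16 (adjusted p = 5.07e-05). LHCB1.2, LHCB1.5 and LHCA1 had log2 fold changes of -1.26 ± 0.22, -0.96 ± 0.18 and -0.87 ± 0.16. The LHCB1 copies are near-identical, so the split among them is uncertain. The summed level of the list was 68000, 67200, 65100 and 90300 CPM at 24 h and 107000, 133000, 121000 and 93400 CPM at 3 h, with 24 h library 4 just under 3 h library 4.

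Of 11 flavonoid and anthocyanin genes tested out of 12, 8 were lower and none higher, with a median of -1.38 (-2.01 in libraries 1 and 2 and -1.0 in libraries 3 and 4). TT4, chalcone synthase, had 273, 305, 166 and 283 CPM at 24 h and 768, 1050, 724 and 410 CPM at 3 h, a log2 fold change of -1.48 ± 0.27 (adjusted p = 0.00226). TT5, the next enzyme, had a log2 fold change of -1.51 ± 0.22, the hydroxylase TT7 of -1.26 ± 0.21 and the anthocyanin glycosyltransferase UF3GT of -2.08 ± 0.34. The 24 h and 3 h libraries did not overlap in any of these 4.

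Root genes differed by library set. Of 15 root and root hair markers tested out of 16, 4 were lower and none higher (26.7% beside 16% of all genes). Their median was -2.49 in libraries 1 and 2 and -0.22 in libraries 3 and 4, and for 8 of 13 the effect differed between the sets. The 4 were 2 without 3 h library 1 or 2 or 24 h library 1, 2 or 4. Their summed level was 103, 144, 222 and 194 CPM at 24 h, against 316, 302, 275 and 292 CPM at 3 h and 244 to 592 CPM untreated, and no marker was at 0 in all 8 libraries. AIR1, a root cell wall gene, had 0.643, 0.815, 4.95 and 3.58 CPM at 24 h and 24.7, 39.9, 38.6 and 24.0 CPM at 3 h. Its log2 fold change was -5.41 in libraries 1 and 2 and -2.84 in libraries 3 and 4 (adjusted p of the difference = 0.0141). The root hair gene PRP3 had -3.03 and -1.07 (adjusted p of the difference = 0.026), and its call over all libraries (adjusted p = 0.0412) was lost without any 1 library except 24 h library 3 and 3 h library 3 (adjusted p 0.0538 to 0.129). MRN1, an enzyme of root triterpenes, fell by 2.55 ± 0.48.

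Of 12 iron genes 3 were lower and none higher (25% beside 16% of all genes), with medians of -2.80 in libraries 1 and 2 and -0.65 in libraries 3 and 4. The 3 were 1 without 3 h library 1, 2 or 3 or 24 h library 1, 2 or 3, and 6 without 24 h library 4. IRT1, the iron transporter of the root surface, had 0.429, 1.45, 12.0 and 15.7 CPM at 24 h and 51.9, 41.3, 39.6 and 62.6 CPM at 3 h. It had log2 fold changes of -5.57 in libraries 1 and 2 and -1.89 in libraries 3 and 4 (adjusted p of the difference = 0.00176). Of 11 hypoxia genes 3 were lower and none higher (27.3%). Their medians had opposite signs, -2.25 in libraries 1 and 2 and 0.14 in libraries 3 and 4, and for 4 of the 11 the effect differed between the sets. The 3 were 1 without 3 h library 2 or 4 or 24 h library 1, 2 or 3, and 7 without 24 h library 4. HRE2, an ethylene response factor of low oxygen, had log2 fold changes of -5.12 in libraries 1 and 2 and -2.25 in libraries 3 and 4 (adjusted p of the difference = 0.0217). The part of the root marker level in these results was not tested.

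Among markers of other cells, 1 of 9 stomatal lineage genes was called, a share of 11.1% beside 16% of all genes. POLAR, a protein of the asymmetric divisions in that lineage, rose by 1.2 ± 0.31 (adjusted p = 0.0165), and without 24 h library 1 its adjusted p was 0.062. The sum of the 9 was 58.7, 53.0, 42.6 and 44.0 CPM at 24 h and 46.0, 48.4, 42.1 and 41.3 CPM at 3 h. Of 14 genes of mitosis and cytokinesis 1, the cyclin CYCB2;2, was higher (log2 fold change 0.70 ± 0.22, adjusted p = 0.0428), a share called of 7.14%. Sums over the list were 215, 213, 182 and 177 CPM at 24 h and 193, 180, 140 and 157 CPM at 3 h. The count higher was 0 without 3 h library 2 or 3 or 24 h library 1, 2 or 3, and 3 without 24 h library 4. Of 9 seed storage genes 5 were tested and 2 were lower (40% beside 16% of all genes). The count lower was 0 or 1 without any 1 library other than 3 h library 4. Medians of the list were -2.49 in libraries 1 and 2 and -3.58 in libraries 3 and 4.

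None of 20 aquaporins tested out of 22 was called by edgeR over all libraries, where 16% of all genes were. Their medians were -0.87 in libraries 1 and 2 and -0.01 in libraries 3 and 4. At an unadjusted p under 0.05 there were 6, DESeq2 called 3, all lower, and edgeR called 1 lower without 3 h library 4, 2 without 24 h library 3 and 3 without 24 h library 4. Of 319 ribosomal protein genes 6 were higher and 15 lower, a share of 6.58%. The 15 were 9 without 3 h library 1, 0 without 3 h library 2, 0 without 24 h library 1, 1 without 24 h library 2, 2 without 3 h library 3, 46 without 3 h library 4, 6 without 24 h library 3 and 88 without 24 h library 4. The 6 were 1 without 3 h library 2 or 24 h library 1 and 3 without 24 h library 2 or 3 or 3 h library 4. Their median was -0.47 in libraries 1 and 2 and 0.05 in libraries 3 and 4. Of 37 genes annotated as nucleolar or in ribosomal RNA processing 1, AT5G06260, a gene for a TLD-domain protein, was higher (log2 fold change 0.47 ± 0.11), a share called of 2.7%. The count higher was 2 without 24 h library 3 and 5 without 24 h library 4. Without 3 h library 4, 3 were lower. Of 55 class III peroxidases 6 were higher and 6 lower, together 21.8%, with medians of -1.0 in libraries 1 and 2 and 0.05 in libraries 3 and 4. The 6 lower were 2 without 3 h library 1, 1 without 3 h library 2, 0 without 24 h library 1, 1 without 24 h library 2 and 3 without 3 h library 3. The effect of time on the peroxidases differed between the sets for 22 of 50.

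Counts of organelle-encoded genes went opposite ways in the sets. Plastid-genome genes held 0.271%, 0.544%, 0.575% and 0.444% of counts at 24 h, against 0.0718%, 0.145%, 1.4% and 1.66% at 3 h. In libraries 1 and 2 the 24 h share was thus higher than at 3 h, and in libraries 3 and 4 it was lower. The untreated Col-0 libraries had 0.309%, 0.219%, 0.711% and 2.04%. The cause of this spread was not tested, and the shares are not read here as organelle transcript levels in the seedlings. The median log2 fold change of the 96 plastid genes tested was 1.89 in libraries 1 and 2 and -1.35 in libraries 3 and 4, and for 78 of 86 the difference was called. For the 47 mitochondrial genes tested it was 2.36 and -1.75, with 27 of 28 called. Over all libraries 1 plastid gene was called by edgeR, ATCG01130, with log2 fold changes of 3.31 in libraries 1 and 2 and 0.43 in libraries 3 and 4, and it lost its call without 3 h library 1 or 2 or 24 h library 1 or 2 (adjusted p 0.0523 to 0.0868), while 3 were higher without 24 h library 4. No mitochondrial gene was called by edgeR or by DESeq2, and 1 had an unadjusted p under 0.05.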

How the data were processed

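The libraries were made from total RNA of whole seedlings with a TruSeq RNA v2 kit, per the labels' protocols. The deposited values are raw counts of reads per gene for 33602 genes in each library; per the submitters' processing notes, the tools were Bowtie2, TopHat, Trimmomatic, edgeR and HTSeq, with TAIR10 as the genome. Their versions, and how multiply mapped reads were handled, are not given in the sources used. Because strand is not marked by this kit, overlapping and antisense genes cannot be told apart.

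Counts of all 16 libraries entered 1 fit with edgeR 4.0.16 (R 4.3.3) after filterByExpr by group and TMM scaling, with group and library set as terms and a two-sided quasi-likelihood F-test of 24 h against 3 h; p-values were adjusted by Benjamini-Hochberg over 21205 genes. Each SE is approximate, being the size of the fold change over the root of its F. The difference between library sets was tested as an interaction in the 8 libraries of 24 h and 3 h. The fits were also run on simulated counts, with the same spread for all genes and no set difference other than changes put in. That run does not show how the calls behave in these libraries. Alternatives were RLE and upper quartile scaling, no filter on low counts, DESeq2 1.42.0, no set term, only the 8 libraries, a replicate block, each set alone, no mutants, and leaving out each library.

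Gene names, coordinates and promoter windows are RefSeq's for TAIR10.1; 32835 of the 33602 loci were matched. The 44 gene lists (29 written by hand, of which 18 loci were dropped because name and locus did not pair, and 15 families by pattern) and the groups compared were chosen with earlier results of these data known. Genes that were not of a list's named class (phosphoinositide kinases, a theta-class transferase, and DREB2A, MBF1C, APX2 and HSA32) were taken out of 3 lists after the values were seen. The genes named are the 15 strongest rises and 15 strongest falls that were called, averaged 5 CPM or more in either group and did not overlap between groups, up to 4 members of each list by smallest p, and HSFA2, HSP101, UBQ10, PAA2, NAC053, NAC078, WRKY70, PR1, ARR5 and LHCB1.4; a part of these is given. BIP2, BZIP60, CCA1, CDC48B and GSTU8 fall outside this rule and were chosen after their values were seen. Replicates differed by a chi-square per degree of freedom of 7.77 to 16.1 inside a set and 22.4 to 59.7 between sets, so none was counted as a copy.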

Additional observations from a re-analysis of the deposited data

Results flagged for a closer look

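The effect of 24 h against 3 h differed between libraries 3 and 4 and libraries 1 and 2 for 3168 genes in the interaction test. The differences for the genes named are given as the log2 effect in libraries 3 and 4 minus that in libraries 1 and 2. They are from the interaction fit and can differ slightly from the set values above, which are from each set fitted alone. They were 1.19 for AT5G51440, 1.03 for AT1G59860, -0.94 for NAC103, -1.17 for NAC053, -1.35 for RNS1, -3.30 for RD29A and -0.77 for RPT5B. They were -0.89 for PDIL1-2, -1.10 for CRT3, -0.91 for NBR1 and -1.69 for PS2. Among genes of roots, low oxygen and cell walls they were 3.64 for IRT1, 2.54 for AIR1, 1.92 for PRP3, 2.83 for HRE2 and -2.59 for XTH10, and for the plastid gene ATCG01130 the value was -2.92. For CRK6 it was 5.14, a fitted value that depends on the prior count, since CRK6 had no count in 3 h libraries 3 and 4.

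Dixon's test was run on the 130 named genes, in the 24 h group and in the 3 h group. It flags about 1 in 20 groups by chance, so as many flags as found here could arise by chance. That rate does not hold near 0. A group with a count in only 1 library is always flagged, as for PUB54, ANK and AT4G01180. Single libraries flagged as far from the other 3 of their group are listed. In 3 h library 4 these were AT5G55150 at 13.3 CPM, AT1G67250 at 78.0 CPM and GH3.2 at 1.95 CPM, each the lowest of its group, and AT4G01180 at 0.0928 CPM, where the others had no count. In 3 h library 2 they were PDIL1-2 at 51.3 CPM, the lowest, LURP1 at 0.710 CPM, the highest, and PUB54 at 0.142 CPM, where the others had no count. ARR5 in 3 h library 3 was the lowest at 4.99 CPM, and ANK in 3 h library 1 had 0.0591 CPM, where the others had no count. In 24 h library 4, CRK13 was the lowest at 11.7 CPM and AOS the highest at 77.0 CPM.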

How the results depend on the processing

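Against 3398 genes called, RLE scaling gave 3413, upper quartile scaling 3374, DESeq2 4081, the fit without the mutants 3239, no filter on low counts 4776, the 8 libraries alone 2460 and no set term 2389. Without a filter 2635 genes were higher at 24 h, with 30022 tested. In libraries 1 and 2 alone 7596 genes were called, 3736 higher and 3860 lower, 3025 at least 2-fold; in libraries 3 and 4 alone 1766 were called, 857 higher and 909 lower. The cause of these differences was not tested. Leaving out 1 library gave 2008 to 4496 calls, 1132 to 2247 higher, 876 to 2249 lower, 985 to 1676 at least 2-fold, and 1246 to 3117 genes that differed between the sets. The last number was 3143 with RLE, 4738 without a filter, 2693 with DESeq2 and 2810 in all 16 libraries; at an unadjusted p under 0.05 it was 6431.

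Of 1296 values of the 130 named genes under the other alternatives, 1241 kept their direction and side of the threshold, 52 missed the threshold, 2 newly passed it and 1, NAC053 in libraries 1 and 2, changed sign (0.12). Of the values that missed it, 19 were in libraries 3 and 4 alone and 15 under the replicate block. Of 1040 values without 1 library 997 kept direction and side, 42 missed the threshold and 1 newly passed it.

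With the replicate number as a block, 1162 genes were called, 649 higher and 513 lower, 817 at least 2-fold, in the 8 libraries, where the set term gave 2460. The correlations of deviations from the group means between same-numbered libraries were 0.0877, 0.136, 0.0504 and 0.0479, so the numbers were not taken as a pairing. Libraries 1 and 2 of 24 h correlated best with their own number, and 3 and 4 did not.

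Depth limits genes of low count: those at 0 to 3 counts over the 3 h group have bounds or wide intervals in place of a fold change. Fold changes of other genes near 0 at 3 h, such as PR1, rest on few reads there too.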

Other observations

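A few growth and stress families not described above are given beside the 16% of all genes that were called. Of 28 xyloglucan endotransglucosylases, which remodel cell walls, 4 were higher and 2 lower at 24 h (21.4%), with medians of -0.73 in libraries 1 and 2 and 0.29 in libraries 3 and 4. XTH11 had 2.68, 2.90, 5.08 and 5.41 CPM at 24 h against 0.886, 0.994, 1.33 and 1.67 CPM at 3 h, and for 18 of the 28 the effect differed between the library sets. The 2 lower were 0 without 24 h library 1 or 2, 1 without 3 h library 1, 2 or 4 or 24 h library 3, and 5 without 24 h library 4. Of 20 expansins, which loosen cell walls, 2 were higher and 4 lower (30%), with medians of -0.81 in libraries 1 and 2 and 0.19 in libraries 3 and 4. EXPA1 had 255, 264, 230 and 338 CPM at 24 h and 143, 189, 109 and 116 CPM at 3 h. The 2 higher were 4 without 3 h library 2 and 1 without any other library except 24 h library 1, and the 4 lower were 2 without 24 h library 1 or 2 and 7 without 24 h library 4.

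Of 23 ethylene response factors 1 was higher and 3 lower (17.4%), with medians of -0.56 in libraries 1 and 2 and 0.32 in libraries 3 and 4; the 1 was 2 without 3 h library 3 or 24 h library 3. ERF98 had 0.214, 0.181, 0.127 and 0.351 CPM at 24 h and 3.66, 4.69, 1.33 and 1.11 CPM at 3 h. Of 64 SAUR genes, which respond early to auxin, 1 was higher and 3 lower (6.25%), with medians of -0.65 in libraries 1 and 2 and 0.45 in libraries 3 and 4; the 1 was 0 without 3 h library 1, and the 3 were 1 without 3 h library 2 or 3 or 24 h library 2. Of 11 genes of senescence and chlorophyll breakdown 2 were higher and 4 lower (54.5%), with medians of 0.48 in libraries 1 and 2 and -0.47 in libraries 3 and 4, and each count was lower without nearly any 1 library, at 0 to 2 and 1 to 2. Of 10 sulfur deficiency genes 2 were lower (20%), and 0 or 1 without any 1 library.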
